A study of Homo sapiens with 28 samples.

Results

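Transcripts of 30 neural lineage and neuronal genes were read in human pluripotent cell lines profiled on Affymetrix Human Exon 1.0 ST arrays. The genes were taken by symbol from a list that runs from transcription factors of the early neural plate to proteins of the axon and synapse. A transcript cluster (the array's unit for a whole gene) annotated to that symbol alone was present for 27 of the 30, among 22011 clusters in all. Probesets (short groups of probes, mostly 1 exon or part of one) annotated to 1 symbol numbered 372 of 287329 and covered 29 of the genes. The cluster of TUBB3 is annotated to several symbols, so TUBB3 was read from its 8 own probesets, NEUROD1 had a single probeset, and HES5 had neither and is not described further. Values are log2, so that a difference of 1 is a 2-fold change in signal.

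Embryonic stem (ES) cells are taken from early embryos, and embryonal carcinoma (EC) cells are the stem cells of germ cell tumours. The 6 ES lines (H9, H14, Shef3, Shef5, Shef6 and Shef7) were cultured on inactivated mouse embryonic fibroblasts (feeders) in serum replacement medium with FGF. The 5 EC lines (2102Ep, 833KE, NCCIT, NTERA2 and TERA1) were kept on plastic with fetal calf serum, and 3 of them (2102Ep, 833KE and NTERA2) were cultured a second time like the ES lines, with their feeders and medium. All cells were sorted for SSEA3, a surface antigen of undifferentiated cells. Each of the 14 arrays is 1 line in 1 growth condition, so the spread within a group is spread between lines, and no line has a repeat culture within a condition.

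The neural plate arises when pluripotent epiblast cells escape BMP and Nodal signals. SOX1, PAX6 and the ZIC factors mark that step, PAX3 and PAX7 the dorsal neural tube and the neural crest that leaves it, and the proneural bHLH factors then start neuronal differentiation. Neurons build intermediate filaments, microtubule-associated proteins and a synaptic vesicle machinery, many of whose genes are held silent elsewhere by the repressor REST. Among EC lines, NTERA2 is known for forming neurons when given retinoic acid, and 2102Ep for resisting differentiation.

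Facts of the whole set that touch these genes are few. The summed level of 8 pluripotency markers, given as their mean, was 10.01 to 11.10 in the ES lines, 10.30 to 11.49 in EC on plastic and 10.46 to 11.23 in EC on feeders. The list held 12 markers, and POU5F1, SOX2, NANOG and TDGF1 were not among the 8 measured. Of the 8, ZFP42 read 3.41 in Shef3, the array of lowest mean, and 4.22 in NTERA2 on plastic, against 7.81 to 11.32 elsewhere. The mean of 14 fibroblast and feeder-like genes was 6.01 to 6.87, 5.48 to 5.82 and 6.04 to 6.40 in the same groups. It was thus lower on plastic than on feeders without overlap, and its part in the differences below was not tested. The mean of 8 endoderm markers was 5.74 to 6.76 in ES, 5.29 to 5.48 in EC on plastic and 5.43 to 5.56 in EC on feeders, so both EC groups lay below every ES line. That of 7 mesoderm markers was 6.55 to 7.63 in ES, above every EC array on plastic (6.03 to 6.42), and 6.24 to 7.06 in EC on feeders. On plastic 0 of the 8 and 0 of the 7 differences from ES were positive, with medians of -0.73 and -0.85. The part of these 2 lists in the differences below was not tested either. The mean of 6 glial markers was 4.95 to 5.45 in every array. NCCIT stood apart most often among the EC arrays on plastic, lying at least 1 above each of the others in 2.65% of all clusters and at least 1 below them in 1.55%. The labels also carry an array code, up to 13 in 4 arrays (H14, Shef5, and NTERA2 and 2102Ep on feeders) and from 17 in the other 10.

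The sequences before the starts of 3 genes are shown because INA and DPYSL3 are the 2 genes called below and PAX3 is the gene of the 27 in which the line Shef7 stood farthest above the other ES lines. They are the 250 bases upstream of each RefSeq start (GRCh38.p14), 5′ to 3′ on the gene's strand, with CG dinucleotides in capitals. The INA stretch is chr10:103276888-103277137 on the plus strand. The 2 DPYSL3 starts lie at chr5:147453693-147453942 and chr5:147510069-147510318, and the PAX3 stretch at chr2:222298999-222299248, all on the minus strand.
INA: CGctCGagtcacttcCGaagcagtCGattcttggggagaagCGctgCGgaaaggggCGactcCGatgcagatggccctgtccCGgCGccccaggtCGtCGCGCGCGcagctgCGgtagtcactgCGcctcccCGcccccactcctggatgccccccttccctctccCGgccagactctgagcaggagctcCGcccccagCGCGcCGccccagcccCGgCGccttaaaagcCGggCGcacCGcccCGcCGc
DPYSL3 start A: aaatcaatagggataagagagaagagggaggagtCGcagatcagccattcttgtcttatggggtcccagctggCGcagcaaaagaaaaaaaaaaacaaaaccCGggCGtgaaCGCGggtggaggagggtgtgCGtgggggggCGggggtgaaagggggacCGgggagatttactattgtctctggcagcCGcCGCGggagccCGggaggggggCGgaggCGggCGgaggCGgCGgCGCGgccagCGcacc
DPYSL3 start B: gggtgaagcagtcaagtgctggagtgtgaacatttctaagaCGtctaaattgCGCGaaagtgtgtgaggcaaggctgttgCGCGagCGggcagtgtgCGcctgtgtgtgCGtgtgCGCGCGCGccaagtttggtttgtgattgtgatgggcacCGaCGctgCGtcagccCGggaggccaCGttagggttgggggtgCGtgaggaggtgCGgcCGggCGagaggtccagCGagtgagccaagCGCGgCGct
PAX3: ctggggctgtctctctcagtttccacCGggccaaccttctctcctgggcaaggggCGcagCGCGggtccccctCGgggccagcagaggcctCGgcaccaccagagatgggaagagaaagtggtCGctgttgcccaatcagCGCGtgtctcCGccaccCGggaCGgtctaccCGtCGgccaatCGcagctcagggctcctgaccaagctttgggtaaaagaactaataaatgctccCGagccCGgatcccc

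The INA stretch held 30 CG dinucleotides, the DPYSL3 stretches 21 and 25, and the PAX3 stretch 17. Over 35097 RefSeq stretches of this length the median was 11, and over the 41 stretches matched to 21 of the 30 genes it was 16. The 3 starts of DCX, the gene of a microtubule-binding protein of migrating neurons, held 1 to 3. The letters CAGCACC, the left part of the site that REST binds, were searched on both strands and found before NES alone among the 21 genes. The right part, GGACAGC, was found before GAP43 and SOX1. Among all stretches 6.16% held the left part and 4.76% the right. The E-box letters CANNTG, which proneural factors bind, stood before 11 of the 21 genes, counting a gene with any start that holds them, and in 61.8% of all stretches. Overlaps between motifs were kept, and a match here is only a match of letters.

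As a reference for signal without a transcript, the 95th percentile of 220 olfactory receptor clusters was taken in each array. Of the 27 genes, 13 lay above it in all 14 arrays, 13 in some arrays, and 1, the synaptic vesicle fusion gene SNAP25, in none, with values from 3.83 to 4.78. By array, 16 to 24 of the 27 genes lay above it, as did 67.8% to 73.2% of all clusters. Probes differ in brightness between genes, so the order of 2 genes on this scale is not an order of transcript number. For the same reason a value above the reference does not by itself show a transcript. NEUROG1 and SOX10 lay above it in all 14 arrays, yet spanned only 0.58 and 0.63 over them.

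**Figure D1:**
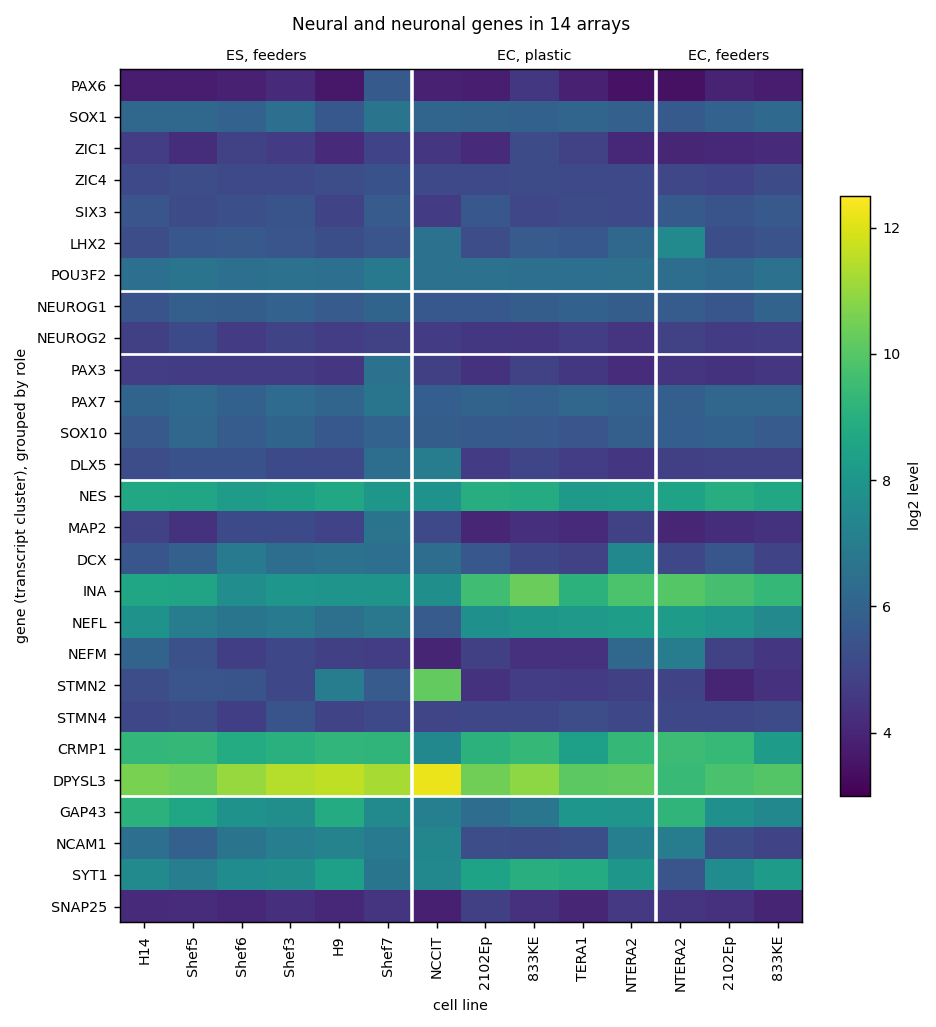
Heat map of the log2 level of the 27 genes with a cluster of their own (rows, grouped by role with white lines between roles) in 14 arrays (columns, grouped by cell type and growth condition). DPYSL3 is bright in every array, at 9.42 to 12.21, and single bright cells mark STMN2 in NCCIT at 10.23 and LHX2 in NTERA2 on feeders at 7.56.

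Between EC lines on plastic and ES lines, 0 of the 27 genes passed the test, against 4.6% of all clusters, 3.26% upward and 1.34% downward (limma, Benjamini-Hochberg adjusted p under 0.05 over all 22011 clusters). Before adjustment 4 of the 27 had p under 0.05, as did 19.2% of all clusters. Differences were positive in 6 of the 27, with a median of -0.16, while the median over all clusters was 0.0046. The 3 genes of smallest p were INA, GAP43 and SYT1. At the exon level 2 of 372 probesets passed, both of INA and upward, where 2.81% of all probesets did and 2.07% did upward.

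Between EC lines on feeders and the same 6 ES lines, INA rose and DPYSL3 fell, so 2 of 27 passed where 2.29% of all clusters did, 1.56% upward and 0.731% downward. Before adjustment 9 of the 27 had p under 0.05, as did 17.6% of all clusters. Differences were positive in 8 of the 27, with a median of -0.15 against 0.042 for all clusters. The 2 groups did not overlap in 6 genes (ZIC1, DLX5, MAP2, INA, STMN2 and DPYSL3), and in 8.87% of all clusters. Of the 3 feeder EC arrays, 0 lay above the olfactory receptor reference in ZIC1, DLX5 and MAP2, and 1 did in STMN2. In ZIC1 only 1 of the 6 ES arrays lay above it. In the comparison on plastic 0 of the 27 and 4.37% of all clusters had groups without overlap. At the exon level 11 of 372 probesets passed, 7 of INA upward and 4 downward in DCX and DPYSL3, against 0.953% of all probesets, 0.61% upward and 0.344% downward. Both comparisons use the same 6 ES arrays and are not independent of each other.

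**Figure D2:**
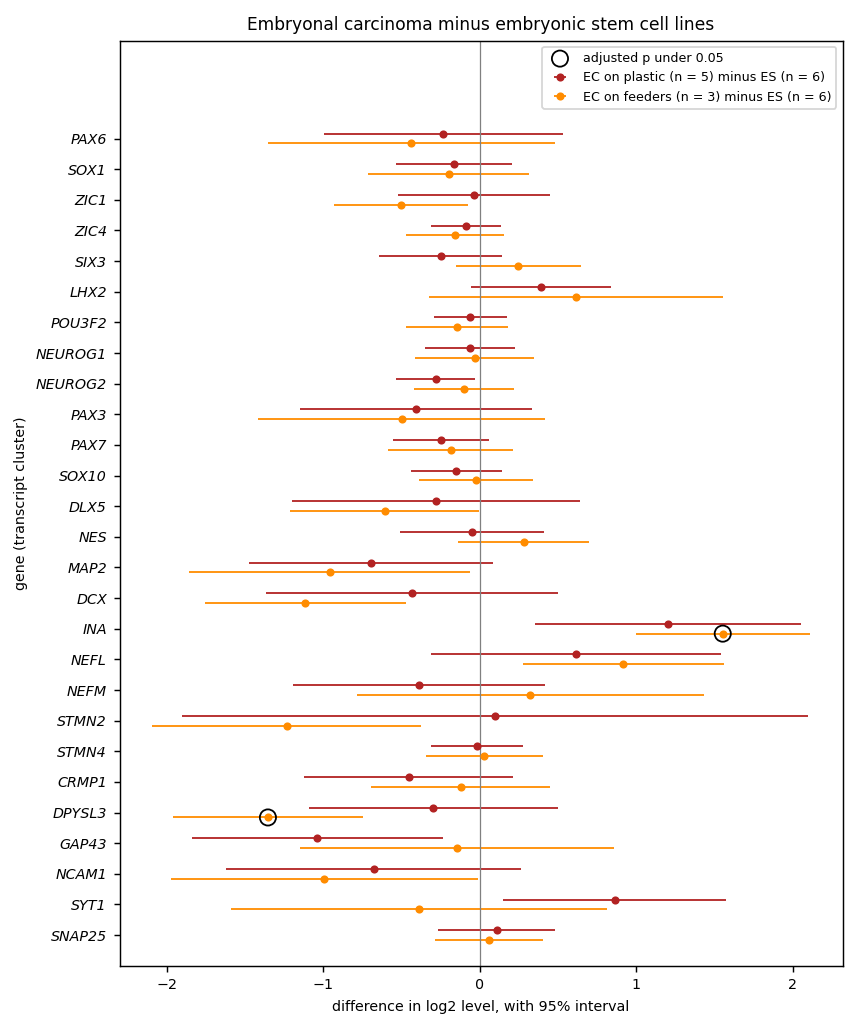
Difference in log2 level between EC and ES lines for each of the 27 genes (rows), on plastic in red and on feeders in orange, with 95% intervals from the limma fit. Circles mark an adjusted p under 0.05, which only INA at 1.55 and DPYSL3 at -1.35 reached, both on feeders.

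INA encodes alpha-internexin, an intermediate filament protein of early neurons. Its level in the ES lines had a lowest value of 7.65, a median of 7.97 and a highest of 8.63. On plastic it was 9.59 in 2102Ep, 10.34 in 833KE, 9.11 in TERA1 and 9.81 in NTERA2, but 7.72 in NCCIT. On feeders it was 10.00 in NTERA2, 9.69 in 2102Ep and 9.31 in 833KE. All EC arrays but NCCIT thus lay above every ES array, and NCCIT lay among them. The means were 8.11 ± 0.39 (SD, n = 6) in ES, 9.31 ± 0.99 (n = 5) in EC on plastic and 9.67 ± 0.34 (n = 3) in EC on feeders. On feeders the difference was 1.55 (SE 0.25, limma adjusted p = 0.0152), a 2.93-fold higher signal. On plastic it was 1.20 (SE 0.39, limma adjusted p = 0.109), and without NCCIT it was 1.60 (SE 0.26, limma adjusted p = 0.00626). Without 2102Ep the difference on feeders stayed at 1.54 but its limma adjusted p was 0.0562. The 2 ES lines with early array codes, H14 at 8.63 and Shef5 at 8.56, were the highest ES arrays. Among later-coded arrays alone the difference was 1.44 on plastic (limma adjusted p = 0.134). On feeders it was also 1.44, but from 1 EC array, 833KE, whose spread was taken to be that of the ES lines (limma adjusted p = 0.0478).

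The 12 probesets of INA did not all follow the cluster. Probesets 3262150 and 3262151 were the 2 that passed on plastic, with differences of 1.84 (limma adjusted p = 0.0433) and 1.61 (limma adjusted p = 0.0367). Each lost its call in 12 of 19 alternatives, among them every array left out except NCCIT. At probeset 3262150 the ES arrays ran from 6.31 to 7.32 and the EC arrays on plastic from 8.48 to 9.69, apart from NCCIT at 6.67. On feeders 7 passed, the 3 of smallest p being 3262152 at 1.66 (limma adjusted p = 0.0219), 3262140 at 2.03 (limma adjusted p = 0.0256) and 3262149 at 1.55 (limma adjusted p = 0.0298). These 3 lost their calls in 6, 7 and 9 of 15 alternatives. Probeset 3262139 was bright in every array, at 10.46 to 12.05, and probeset 3262137 lay between 8.00 and 9.28 with EC and ES arrays mixed. In a test of probeset usage (limma diffSplice, which asks whether a probeset moves apart from the rest of its gene), 0 of the 140 tested probesets in 11 of these genes passed, where 0.161% of all tested did. With NCCIT left out 1 passed, probeset 3262139 of INA, which lay 1.89 below the rest of its gene in EC relative to ES (adjusted p = 0.00286).

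The other neurofilament genes differed from INA. NEFL, the light neurofilament chain, was 6.50 to 7.86 in ES with a median of 6.88. Among EC arrays on plastic it read 7.76 in 2102Ep, 8.04 in 833KE, 8.11 in TERA1 and 8.31 in NTERA2, and 5.72 in NCCIT. Those on feeders read 8.26 in NTERA2, 7.94 in 2102Ep and 7.47 in 833KE. NCCIT was the lowest of all 14 arrays, and 10 of its 15 NEFL probesets lay at least 1 below every other EC array on plastic, against 3.45% of all probesets. The difference was 0.61 on plastic (SE 0.42, limma adjusted p = 0.486) and 0.92 on feeders (SE 0.29, limma adjusted p = 0.134), and without NCCIT it was 1.08 on plastic (SE 0.24, limma adjusted p = 0.0253). INA and NEFL were the 2 genes of the 27 that passed on plastic when NCCIT was left out. NCCIT was the lowest EC array on plastic in both genes. The share of all clusters that passed without NCCIT is not given here, so this count has no background.

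NEFM, the medium chain, followed NTERA2. It was 4.72 to 6.04 in ES with a median of 4.93, the highest being H14. On plastic NTERA2 read 6.17, and NCCIT 3.97, 2102Ep 4.80, 833KE 4.36 and TERA1 4.37. On feeders NTERA2 read 6.98, 2102Ep 4.84 and 833KE 4.51. NTERA2 was thus the highest EC line in both growth conditions (at least 1 above the rest in 1.18% of all clusters on plastic and 2.83% on feeders). On plastic it lay at least 1 above the others at 7 of 16 probesets, against 2.22% of all probesets. On feeders it did so at 12, against 4.78%. The group differences of -0.39 on plastic and 0.32 on feeders did not pass (limma adjusted p = 0.636 and 0.809).

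DPYSL3 and CRMP1 belong to the collapsin response mediator family, which relays guidance signals to the growth cone cytoskeleton. DPYSL3 was 10.42 to 11.61 in ES with a median of 11.15. The EC arrays on plastic read 12.21 in NCCIT, 10.45 in 2102Ep, 10.89 in 833KE, 10.11 in TERA1 and 10.19 in NTERA2. EC arrays on feeders read 9.42 in NTERA2, 9.77 in 2102Ep and 9.95 in 833KE. The 3 feeder EC arrays lay below every other array, and NCCIT above every other. On feeders the difference from ES was -1.35 (SE 0.27, limma adjusted p = 0.0349), a 2.56-fold lower signal. It missed the threshold without any 1 of the 3 EC lines, with a limma adjusted p of 0.0566 without 833KE, 0.0873 without NTERA2 and 0.101 without 2102Ep. It also missed it without Shef6, Shef3, H9 or Shef7, at 0.0514 to 0.0766. On plastic the difference from ES was -0.30 (limma adjusted p = 0.732). Of its 22 probesets 22 were lower in EC on feeders than in ES and 2 passed, 2880295 at -1.46 (limma adjusted p = 0.0323) and 2880301 at -1.46 (limma adjusted p = 0.0394). The early-coded ES arrays H14 at 10.60 and Shef5 at 10.42 were the lowest ES arrays, and with the array code as a block the difference was -1.13 (limma adjusted p = 0.0220). Among later-coded arrays alone it was -1.40 and did not pass, again from 1 EC array with the spread of the ES lines (limma adjusted p = 0.0686). The call at probeset 2880295 was lost in 11 of 15 alternatives and that at 2880301 in 12.

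CRMP1 was 8.86 to 9.34 in ES with a median of 9.25. The values on plastic were 7.44 in NCCIT, 9.12 in 2102Ep, 9.31 in 833KE, 8.37 in TERA1 and 9.33 in NTERA2. Those on feeders were 9.50 in NTERA2, 9.37 in 2102Ep and 8.27 in 833KE. The low arrays were NCCIT and TERA1 on plastic and 833KE on feeders. The cluster in 833KE lay at least 1 below the other feeder EC arrays, as did 2.91% of all clusters. At probeset level 11 of 22 did so, against 10.4% of all probesets. In NCCIT 10 of 22 probesets lay at least 1 below the other EC arrays on plastic, against 3.45% of all probesets. Neither group differed from ES (limma adjusted p = 0.476 and 0.866).

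DCX (doublecortin) was 5.53 to 6.93 in ES with a median of 6.44. EC lines on plastic had 7.44 in NTERA2, 6.40 in NCCIT, 5.60 in 2102Ep, 5.05 in 833KE and 4.88 in TERA1. EC lines on feeders had 5.06 in NTERA2, 5.54 in 2102Ep and 4.96 in 833KE. NTERA2 was the highest of all arrays on plastic, with 9 of 18 probesets at least 1 above the other EC arrays on plastic, and lay among the others on feeders. On plastic 2.22% of all probesets were at least 1 higher in NTERA2. On feeders the difference from ES was -1.12 (SE 0.29, limma adjusted p = 0.0781), and on plastic -0.43 (SE 0.43, limma adjusted p = 0.655). Probesets 4018221 and 4018225 passed on feeders, with differences of -2.91 (limma adjusted p = 0.0101) and -3.36 (limma adjusted p = 0.0385). Their calls were lost in 2 and 10 of 15 alternatives. At 4018221 the ES arrays read 4.10 to 6.11, and the EC arrays on feeders 2.47 in NTERA2, 1.64 in 2102Ep and 2.14 in 833KE.

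STMN2 encodes stathmin-2, which regulates microtubules in growing axons. It was 5.07 to 6.99 in ES with a median of 5.48, H9 being the highest. Plastic cultures read 10.23 in NCCIT and 4.41 in 2102Ep, 4.73 in 833KE, 4.66 in TERA1 and 4.80 in NTERA2. Feeder cultures read 4.96 in NTERA2, 3.99 in 2102Ep and 4.35 in 833KE. NCCIT stood 5.43 above the next EC array on plastic, and all 3 STMN2 probesets lay at least 1 above, against 3.1% of all probesets. The other 4 plastic EC arrays did not exceed the olfactory receptor reference, so the gap is a lower bound. H9 stood 1.28 above the next ES array, as it did by at least 1 in 0.341% of all clusters. At probeset level 2 of 3 were at least 1 apart there, against 1% of all probesets. STMN2 lay above the olfactory receptor reference in 7 of 14 arrays, and no feeder EC array reached the lowest ES array. The difference was -1.23 on feeders (SE 0.39, limma adjusted p = 0.132) and 0.10 on plastic (SE 0.92, limma adjusted p = 0.971). Without NCCIT it was -1.02 on plastic (SE 0.32, limma adjusted p = 0.0902). Its relative STMN4 stayed between 4.75 and 5.46 in all arrays, with NCCIT at 4.97.

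**Figure D3:**
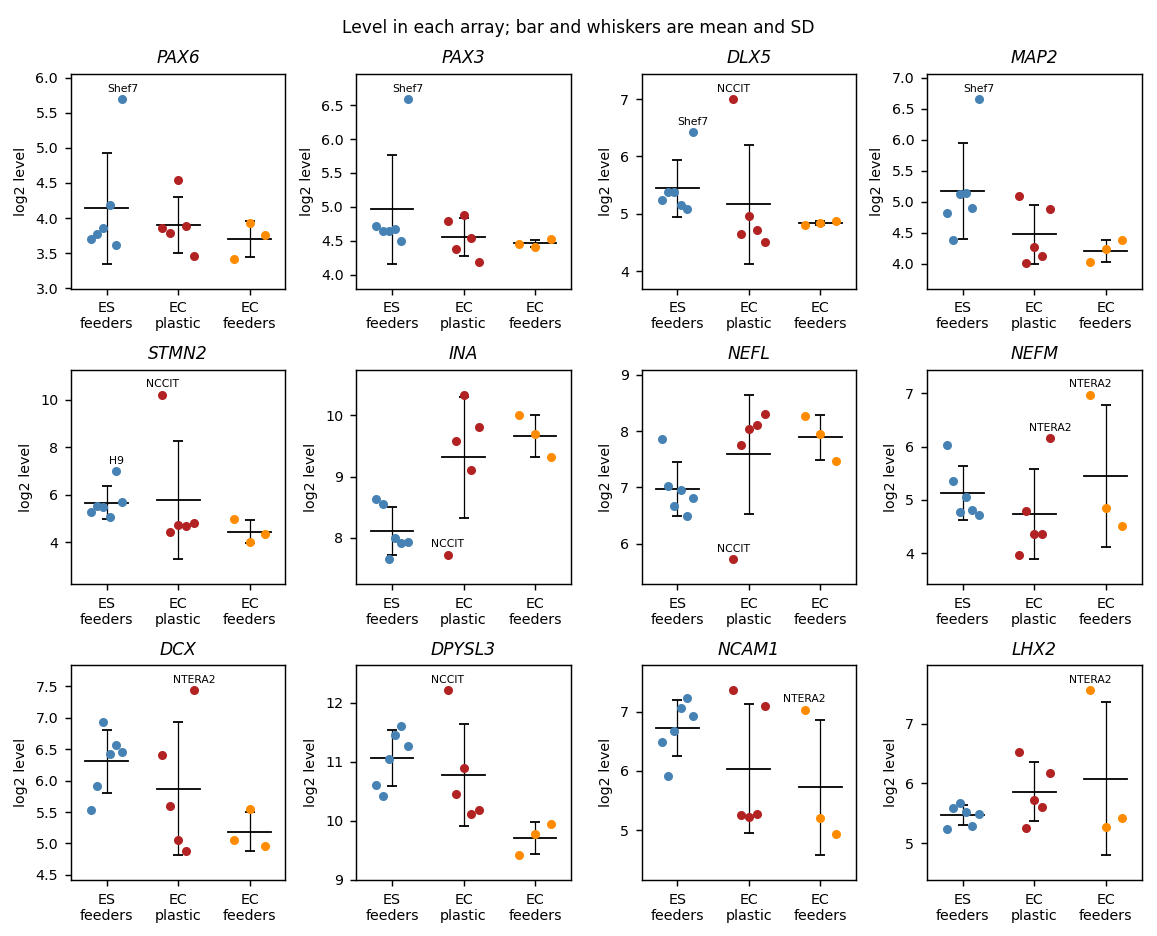
Log2 level of 12 genes in each array (points), by group, with the group mean and SD; the names mark arrays at least 1 away from every other array of their group. Shef7 carries the label at PAX6, PAX3, DLX5 and MAP2, NCCIT at DLX5, STMN2, INA, NEFL and DPYSL3, and NTERA2 at NEFM, DCX, NCAM1 and LHX2.

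Among the other cytoskeletal genes, NES (nestin, the intermediate filament of neural progenitors) was even, at 8.04 to 8.70 in ES, 7.87 to 8.91 in EC on plastic and 8.52 to 8.93 in EC on feeders. TUBB3, the neuronal beta-tubulin, was read from 8 probesets, of which 1 was higher in EC on plastic than in ES (median difference -0.58) and 2 in EC on feeders (median -0.24). None of the 8 passed in either comparison. Over the 10 cytoskeletal genes with a cluster, 3 differences were positive on plastic and 5 on feeders.

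Shef7 stood apart from the other ES lines in transcription factors and in MAP2. PAX6, which specifies neuroectoderm and eye, read 5.70 in Shef7 and 3.61 to 4.18 in the other 5 ES lines. PAX3, of dorsal neural tube and neural crest, read 6.59 against 4.49 to 4.72. DLX5, a homeobox gene of the neural plate border and forebrain, read 6.43 against 5.09 to 5.39. MAP2, a dendritic microtubule-associated protein, read 6.66 against 4.38 to 5.15. These were 4 of 27 genes at least 1 above every other ES line, where Shef7 was so placed in 0.214% of all clusters. At probeset level Shef7 was so placed at 9 of 16 for PAX6 and 13 of 20 for PAX3. It was so placed at 2 of 5 for DLX5 and 15 of 28 for MAP2, against 0.455% of all probesets. Clusters and probesets come from the same arrays, so the 2 levels are not independent. At probeset 3368071 of PAX6 Shef7 read 9.15 and the other ES lines 4.65 to 6.33. PAX6 was above the olfactory receptor reference in 1 of 14 arrays, Shef7, and PAX3 in 1 of the 6 ES lines, so their gaps are lower bounds.

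Shef7 also held the highest ES value, by less than 1, of SOX1 (6.65 against up to 6.45), ZIC1 (4.92 against up to 4.82), PAX7 (6.68 against up to 6.33) and POU3F2 (6.84 against up to 6.64). The same held for ZIC4, SIX3, NEUROG1 and SNAP25. At the other end, Shef7 held the lowest ES value of NES (8.04), NEFM (4.72), GAP43 (7.56) and SYT1 (6.70). The pluripotency marker mean of Shef7 was 10.62, within the range of the other ES lines, as was its fibroblast mean of 6.12. Of 87 further genes on 5 lists, among them the complex through which REST acts, 0 stood 1 apart in Shef7. Over all clusters 0.214% stood so above and 0.273% below. LHX5 lay just under that cut-off, at 8.39 in Shef7 and 6.76 to 7.40 in the other ES lines. In no comparison did PAX6, PAX3, DLX5 or MAP2 pass. With Shef7 left out, the difference on feeders was -0.12 for PAX6, -0.17 for PAX3, -0.41 for DLX5 and -0.66 for MAP2, against -0.44, -0.50, -0.61 and -0.96 with it.

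**Figure D4:**
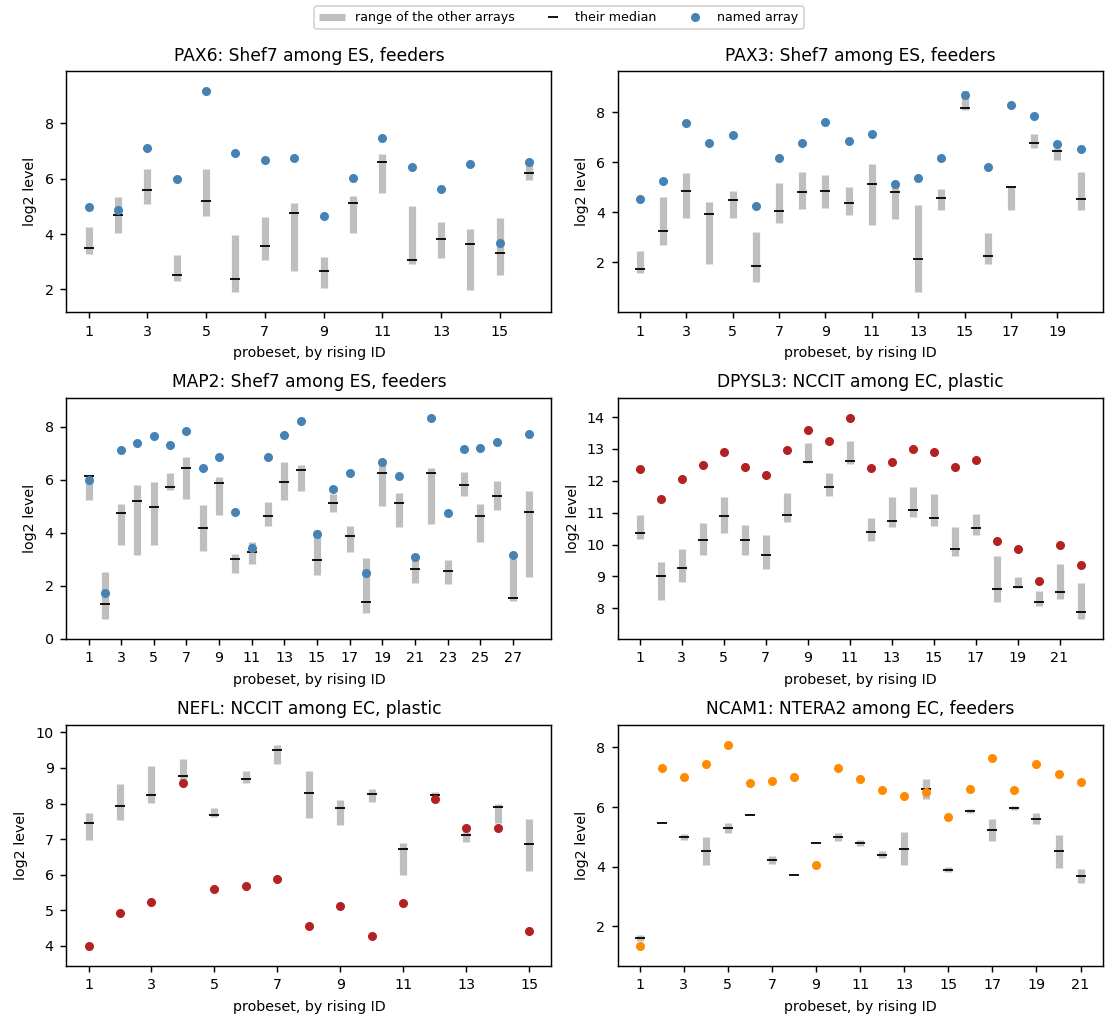
Log2 level at each probeset of 6 genes (horizontal axis, by rising probeset ID) for the array named in the panel title (coloured points), with the range (grey) and median (black) of the other arrays of its group. Shef7 lies at least 1 above the other ES arrays at 9 of 16 PAX6, 13 of 20 PAX3 and 15 of 28 MAP2 probesets, NCCIT above at 15 of 22 DPYSL3 and below at 10 of 15 NEFL probesets, and NTERA2 above at 16 of 21 NCAM1 probesets. Shares of all probesets so placed are 0.455% for Shef7, 3.1% above and 3.45% below for NCCIT, and 4.78% for NTERA2 on feeders.

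In EC lines the same transcription factors were placed differently. DLX5 was 7.01 in NCCIT and 4.65 in 2102Ep, 4.97 in 833KE, 4.71 in TERA1 and 4.50 in NTERA2 on plastic, and 4.80 in NTERA2, 4.84 in 2102Ep and 4.88 in 833KE on feeders. NCCIT was higher than Shef7, and every other EC array was below every ES array. PAX3 was 4.19 to 4.88 and MAP2 4.02 to 5.09 over the 8 EC arrays, with MAP2 highest in NCCIT and, at 4.88, in NTERA2 on plastic. PAX6 at cluster level was highest among EC arrays in 833KE on plastic, at 4.54, and read 3.75 in 833KE on feeders. In 833KE on plastic 5 of 16 PAX6 probesets lay at least 1 above the other EC arrays on plastic, against 0.908% of all probesets. The clearest was 3368071 at 7.64 against 3.02 to 4.59, while 833KE on feeders read 4.21 there.

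LHX2, a LIM homeobox factor of forebrain and eye, was 5.24 to 5.67 in ES with a median of 5.51. Plastic cultures gave 6.53 in NCCIT, 5.26 in 2102Ep, 5.73 in 833KE, 5.61 in TERA1 and 6.18 in NTERA2. Feeder cultures gave 7.56 in NTERA2, 5.27 in 2102Ep and 5.41 in 833KE. At probeset 3188672 NTERA2 read 9.53 on feeders and 6.91 on plastic, NCCIT 6.78, and the other 11 arrays 2.55 to 4.28. The high arrays were thus NTERA2 and NCCIT, at the cluster and at this probeset. The difference from ES did not pass on plastic (0.39, limma adjusted p = 0.334) or on feeders (0.61, limma adjusted p = 0.507).

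The remaining factors lay close together. SOX1, ZIC1, ZIC4, SIX3, POU3F2, NEUROG1, NEUROG2, PAX7 and SOX10 each spanned 0.49 to 1.18 over the 14 arrays, and no array stood 1 apart in any of them. NEUROG1 and NEUROG2, proneural bHLH factors, read 5.47 to 6.04 and 4.44 to 5.12. The difference of NEUROG2 on plastic was -0.28 (limma adjusted p = 0.207), and at the single NEUROD1 probeset the 14 arrays read 3.12 to 5.46. SOX10, the factor of migrating neural crest, read 5.51 to 6.14. Over the 13 factors with a cluster, 1 difference was positive on plastic (LHX2) and 2 on feeders (SIX3 and LHX2), and 0 passed.

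NCAM1, a neural cell adhesion molecule, divided the EC lines. It was 5.92 to 7.24 in ES with a median of 6.80. On plastic it was 7.36 in NCCIT and 7.09 in NTERA2, and 5.26 in 2102Ep, 5.22 in 833KE and 5.27 in TERA1. On feeders it was 7.03 in NTERA2, 5.20 in 2102Ep and 4.93 in 833KE. NCCIT and NTERA2 lay in the range of the ES lines or just above it, and the 3 other lines below every ES line in each condition measured. With both kinds of line in 1 group, the difference was -0.68 on plastic (SE 0.43, limma adjusted p = 0.443) and -0.995 on feeders (SE 0.44, limma adjusted p = 0.277). Without NTERA2 it was -1.65 on feeders (SE 0.32, limma adjusted p = 0.0308).

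GAP43, a growth cone protein of regenerating axons, was 7.56 to 9.09 in ES with a median of 8.26. On plastic it was 7.11 in NCCIT, 6.41 in 2102Ep, 6.75 in 833KE, 8.00 in TERA1 and 7.96 in NTERA2. On feeders it was 9.22 in NTERA2, 7.76 in 2102Ep and 7.44 in 833KE. The difference from ES was -1.04 on plastic (SE 0.37, limma adjusted p = 0.139) and -0.14 on feeders (SE 0.45, limma adjusted p = 0.912). SYT1, the calcium sensor of vesicle release, was 6.70 to 8.37 in ES with a median of 7.58. On plastic it was 7.45 in NCCIT, 8.49 in 2102Ep, 9.004 in 833KE, 8.84 in TERA1 and 8.03 in NTERA2, and on feeders 5.50 in NTERA2, 7.63 in 2102Ep and 8.21 in 833KE. NTERA2 on feeders was the lowest of all arrays and at least 1 below the other feeder EC arrays, as it was in 1.95% of all clusters. It was so placed at 10 of 11 probesets, against 3.82% of all probesets. The difference from ES was 0.86 on plastic (SE 0.33, limma adjusted p = 0.171) and -0.39 on feeders (limma adjusted p = 0.782).

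The same 3 EC lines on feeders and on plastic were compared within each line. The array code changes with the condition in 2 of the 3 pairs. In that comparison, with the line as a block, 0 of 27 genes and 0 of 372 probesets passed, as did 0 of all clusters and probesets (limma, 0% of each). At an unadjusted p under 0.05 there were 3276 clusters in all (14.9%) and 3 of the 27 genes, namely GAP43, DPYSL3 and SYT1. GAP43 was higher on feeders in all 3 lines, by 1.26 in NTERA2, 1.35 in 2102Ep and 0.70 in 833KE (mean 1.10, SE 0.20, limma adjusted p = 0.237). DPYSL3 was lower in all 3, by a mean of -0.80 (SE 0.16, limma adjusted p = 0.239). SYT1 was lower in all 3, with changes of -2.53 in NTERA2, -0.87 in 2102Ep and -0.79 in 833KE (mean -1.40, limma adjusted p = 0.268). The fibroblast and feeder-like list was higher on feeders in 13 of its 14 genes, with a median difference of 0.54, and its part in these changes was not tested.

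**Figure D5:**
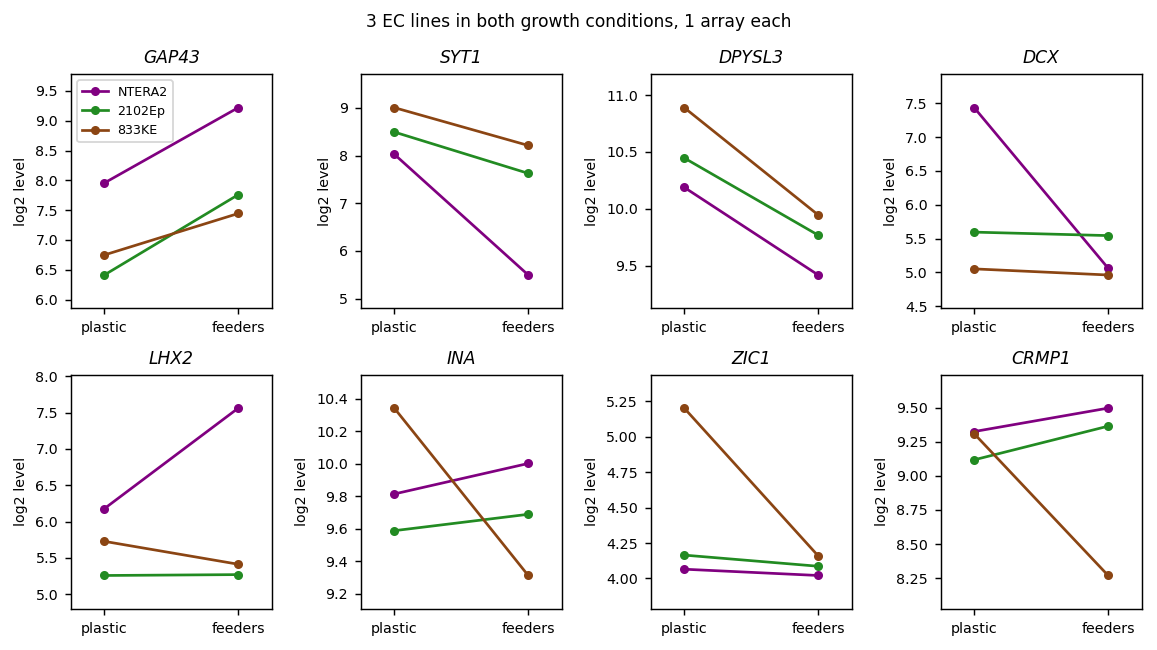
Log2 level of 8 genes in 3 EC lines on plastic and on feeders (1 array each, joined by a line for each cell line). GAP43 rises and SYT1 and DPYSL3 fall in each line, DCX and LHX2 move by over 2 or over 1 in NTERA2 alone, and INA, ZIC1 and CRMP1 fall by over 1 in 833KE alone.

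Changes between the 2 conditions differed by line. NTERA2 moved by at least 1 in 4 of 27 genes (LHX2, DCX, GAP43 and SYT1), where 10.1% of all clusters did. For LHX2 it went up by 1.38, and for DCX the change was -2.38. In 2102Ep 1 gene moved by at least 1 (GAP43; 6.28% of all clusters). In 833KE it was 3 genes (ZIC1, INA and CRMP1; 8.3% of all clusters), with changes of -1.04, -1.03 and -1.04. NTERA2 and 2102Ep on feeders have early array codes and their plastic arrays later ones, so in these 2 lines code and condition cannot be told apart.

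Further genes of the same pathways were taken from 5 lists and described by counts. Of 23 neural plate and progenitor factors, 2 fell on plastic, ZIC2 (-1.29) and ZIC5 (-0.76), and 2 fell on feeders, OTX2 (-3.10), a forebrain homeobox gene, and CDH2 (-2.90), the N-cadherin of the neural plate. On plastic OTX2 differed by -1.82 (limma adjusted p = 0.123) and CDH2 by -2.70 (limma adjusted p = 0.0527), and both passed there without NCCIT. Of 20 alternatives on plastic ZIC2 lost its call in 9 and ZIC5 in 11, each without H14, Shef3, Shef7, 2102Ep, 833KE or TERA1 among them. Of 16 on feeders OTX2 and CDH2 lost theirs in 2 each, without 833KE and without 2102Ep among them. The median difference of the list was -0.19 on plastic and -0.23 on feeders. Of 20 proneural, Notch and neuronal fate factors, 1 fell on plastic, the Notch target HES1 (-0.69), and 0 passed on feeders (medians -0.081 and 0.041). HES1 lost its call in 9 of 20 alternatives, including those without Shef6, Shef3, 833KE or TERA1, and was -0.32 with EC arrays of both growth conditions (limma adjusted p = 0.676). On feeders alone HES1 differed the other way, by 0.39 (limma adjusted p = 0.490). Of 12 neural crest genes 0 passed (medians -0.13 and -0.24). The crest genes of smallest p were SNAI2 on plastic at -1.14 (limma adjusted p = 0.276) and TFAP2A on feeders at -1.04 (limma adjusted p = 0.174). Of 24 neuronal cytoskeleton and synaptic genes, TUBB2B (-1.16) and the synaptotagmin SYT4 (-2.09) fell on plastic, and SYT4 fell on feeders (-2.43), with medians of -0.039 and 0.11. TUBB2B lost its call in 12 of 20 alternatives, including those without H14, Shef5, Shef6, Shef3, Shef7, 2102Ep, 833KE or TERA1. SYT4 lost its call on plastic in 2, of which 1 left out 833KE, and on feeders in 11 of 16, among them every array left out except Shef5. The background for these counts is the same 4.6% on plastic and 2.29% on feeders.

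Of the 8 genes of the complex through which REST silences neuronal genes, 2 passed on plastic and 1 on feeders, all upward. Upward calls made up 3.26% and 1.56% of all clusters. Differences were positive in 5 of the 8 on plastic and in 4 on feeders. REST itself read 9.03 to 9.54 in ES, 9.01 to 10.49 in EC on plastic and 8.84 to 9.50 in EC on feeders. RCOR2 read 7.56 to 8.16, 6.68 to 7.70 and 6.74 to 8.02 in the same groups. HDAC1, a histone deacetylase, rose by 0.81 on plastic (9.94 ± 0.18 (SD, n = 6) in ES and 10.75 ± 0.25 (n = 5) in EC, limma adjusted p = 0.00893) and by 0.86 on feeders (limma adjusted p = 0.0250). RCOR1, the CoREST scaffold, rose by 0.60 on plastic (limma adjusted p = 0.0345) and differed by 0.034 on feeders (limma adjusted p = 0.953). The call of RCOR1 on plastic was lost in 13 of 20 alternatives, including those without H14, Shef5, Shef6, Shef3, Shef7, 2102Ep, 833KE or TERA1, and it differed by 0.39 when EC arrays from plastic and feeders were pooled (limma adjusted p = 0.302). HDAC1 kept its call in all 20 alternatives on plastic and lost it in 7 of 16 on feeders, including those without 2102Ep, 833KE, Shef6, Shef3 or Shef7. The median of the 8 was 0.099 on plastic and -0.012 on feeders.

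NCCIT stood apart in these lists as well. It was at least 1 above the other EC arrays on plastic in 6 of 87 genes, against 2.65% of all clusters. Among them were TFAP2A at 9.66 against 4.57 to 4.76, OTX2 at 10.19 against 6.55 to 7.82, SOX21 at 9.12 against 5.93 to 6.36 and OLIG3 at 8.13 against 4.52 to 6.09. NCCIT was at least 1 below them in 3 of the 87, ERBB3, NEFH and SYP, against 1.55% of all clusters. NEFH, the heavy neurofilament chain, read 5.25 in NCCIT against 6.40 to 7.42. Among the EC arrays on plastic, INA, NEFL and NEFH were thus each lowest in NCCIT.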

How the data were processed

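The authors' deposited tables hold log2 values, 1 per transcript cluster and 1 per probeset, made with RMA in Affymetrix Expression Console per the labels; versions, RMA settings and log base are not given in the sources used here, and the scale was inferred from the values. Array medians were 6.19 to 6.39 at gene level. Values were used as deposited, and 0 columns of sample values were left unused. Symbols came from the platform annotation; sequences are from RefSeq (GRCh38.p14).

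Groups were compared with limma 3.58.1 (lmFit, eBayes, two-sided) in R 4.3.3, fitted on each whole table with Benjamini-Hochberg adjustment over it. The feeder and plastic arrays of 3 lines were paired by line name: a feeder array's deviations correlated with its own line's plastic array at 0.51 (NTERA2), 0.41 (2102Ep) and 0.34 (833KE), and below 0 with other lines. Usage was tested with diffSplice on probesets above the 25th percentile and genes above the 50th, both in each group, with a difference of at least 1. It assumes equal spread within a gene, and on simulated data with unequal spread it called too many probesets. Scripts were tested on simulated data.

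Genes given array by array were those called, the 3 of smallest p in each comparison, and those in which 1 array stood at least 1 from every other of its group. Genes and lists were chosen with earlier results of these data known. Alternatives were quantile normalization, a filter at the 25th percentile, a trended eBayes, the array code as a block or later codes only, the spread of all 14 arrays, subsets of EC arrays, and each array left out; leaving out 2 arrays together was added after seeing the data. Figures were drawn with matplotlib 3.10.9. Nothing states that repeat cultures were made, so p-values measure the spread between lines, and precision is limited by the few arrays. Detection p-values were not used here.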

Additional observations from a re-analysis of the deposited data

Results flagged for a closer look

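In 9 cases an array lay farther from its group than Dixon's 95% critical value allows (0.625 for the 6 ES lines, 0.71 for the 5 EC lines on plastic). Chance alone flags about 1 group in 20. Over all clusters 5.65% were so placed in ES and 6.61% in EC on plastic, and among the 27 neural genes 5 and 4 were.

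In ES lines, Shef7 was the outlying line at PAX6 (5.70), PAX3 (6.59), DLX5 (6.43) and MAP2 (6.66), and H9 at STMN2 (6.99). In EC lines on plastic, NCCIT was the outlying line at DLX5 (7.01), NEFL (5.72) and STMN2 (10.23). ZIC4 in 833KE (5.17 against 5.08 to 5.11 in the others) was placed so because the other lines lay close together.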

How the results depend on the processing

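The count of neural genes called on plastic, 0 with all arrays, was 1 with only the 3 EC lines also grown on feeders, 1 with EC arrays of both growth conditions and 1 without Shef7 and NCCIT, and 0 to 2 with 1 array left out (2 without NCCIT). On feeders the count of 2 was 0 with the spread of all 14 arrays, 0 without Shef7 and NTERA2, and 0 to 4 with 1 array left out. For probesets on plastic the count of 2 was 0 with the array code as a block, 0 for later-coded arrays, 10 with the 3 EC lines, 4 with both growth conditions, 10 without Shef7 and NCCIT, and 0 to 15 with 1 array left out (15 without NCCIT). For probesets on feeders the count of 11 was 18 after quantile normalization, 20 with dim probesets left out, 7 with the array code as a block, 0 with the spread of all 14 arrays, 3 without Shef7 and NTERA2, and 1 to 17 with 1 array left out. For usage the count of 0 was 1 with no filter on dim probesets (NES probeset 2438428) and 0 to 1 with 1 array left out. Shares of all clusters or probesets called under each alternative are not given here. A change in these counts can thus not be read as particular to the neural genes. Feeders against plastic gave 0 genes and 0 probesets in every alternative run; without the replicate block, that is with the lines unpaired, the counts were 0 and 0. RCOR1 on feeders, 0.034, was -0.12 after quantile normalization and -0.079 to 0.19 with 1 array left out. HES1 on feeders, 0.39 with all arrays, was -0.24 for later-coded arrays, the only 1 of 16 alternatives that reversed it. INA on feeders was 1.33 to 1.73 over 16 alternatives and lost its call in 3, and DPYSL3 was -1.52 to -1.13 and lost its call in 10. The causes were not tested. Signal over background limits the dim genes: 14 of 27 lay at or under the olfactory receptor reference in at least 1 array.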

Other observations

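Genes outside the neural lists that stood farthest apart in Shef7 are given as values, named after their values were seen. Among clusters with 1 symbol, the 12 largest gaps above the other ES lines included PAX3 and PAX6. They also included OR56A1, an olfactory receptor gene of the kind used as the reference, at 5.05 against 2.33 to 3.39. Its gap of 1.66 was larger than the 1.52 of PAX6. Ahead of PAX3 were GREM1, a secreted BMP antagonist, at 8.48 against 3.72 to 5.52, GREB1L at 8.998 against 3.99 to 6.36, DLK1, a Notch-related imprinted gene, at 9.66 against 5.96 to 6.80, LIX1 at 8.99 against 4.54 to 6.47, and LGI1, which encodes a secreted neuronal protein, at 6.98 against 3.25 to 4.56. WLS, which carries WNT proteins to the cell surface, read 10.68 against 7.49 to 9.12, and the endocytic receptor LRP2 6.44 against 4.46 to 4.84.

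Genes outside the list with wide gaps in NCCIT were the adhesion gene CDH6 (10.87 against 5.06 to 5.98) and the semaphorin receptor NRP1 (9.92 against 4.39 to 5.80). TAC1, which encodes the neuropeptide substance P, read 7.04 against 3.34 to 3.71. In NTERA2 on feeders the mesendoderm factor MIXL1 read 11.21 against 7.30 to 7.51 in the other feeder EC arrays, and WNT8A 8.18 against 5.26 to 5.33.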
